A study of Mus musculus with 12 samples.

Results

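The BCL2 family decides at the mitochondrion whether a stressed cell dies by apoptosis, and 10 of its genes were followed in RNA from mouse pancreatic islets. The genes were taken by symbol from a list (Bax, Bak1, Bcl2, Bcl2l1, Mcl1, Bid, Bad, Bcl2l11, Bbc3 and Pmaip1) of textbook family members, not by a threshold on their values, although earlier results of these data were known when the list was drawn up. They are 10 of the 48709 genes in the deposited count table, and all 10 passed the filter on low counts, as did 17294 genes in all. Islets came from female mice labelled NSG RIP-DTR Htz. NSG is an immunodeficient strain that lacks mature lymphocytes, and in RIP-DTR mice the rat insulin promoter drives the receptor for diphtheria toxin, so that insulin-producing beta cells are the cells made sensitive to it. Libraries fell into 4 groups of 3. Mice of 3 groups received diphtheria toxin and carry the labels 1, 3 and 5 DPA, which the labels do not spell out and which are taken as days post-ablation. Mice of the group labelled CTRL had no treatment but carried the same transgene and strain background. The sources used here give neither the age of the mice nor the toxin dose, and do not say whether islets of several mice were pooled.

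As background, the effector proteins BAX and BAK open pores in the outer mitochondrial membrane, which releases cytochrome c and starts the caspases. The guardians BCL2, BCL-XL (made from Bcl2l1) and MCL1 bind the effectors and keep them closed. BH3-only proteins, among them PUMA (Bbc3), NOXA (Pmaip1), BIM (Bcl2l11), BAD and BID, carry the death signal: they occupy the guardians, and some of them also activate BAX and BAK. Much of the control acts on the proteins, by cleavage, phosphorylation and degradation, and the data here are levels of RNA. In islets, PUMA and BIM are known as mediators of beta cell death under stress, and BCL-XL is known to protect beta cells.

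Total counts were 29867083 to 50012558 per library. All 10 beta cell markers in a fixed list were detected, and their summed level in CPM (counts scaled to the size of each library) was 106774 to 163598 at 1 DPA, 151299 to 188768 at 3 DPA and 154019 to 207912 at 5 DPA, against 183834 to 204548 in CTRL. In bulk islet RNA, fewer cells of a type and less RNA per cell cannot be told apart. Markers of macrophages and stromal cells differed between the groups and between CTRL libraries. The summed CPM of 11 macrophage markers was 108 to 132 at 1 DPA, 238 to 407 at 3 DPA and 659 to 908 at 5 DPA, against 607, 393 and 147 in CTRL replicates 1, 2 and 3. The summed CPM of 10 stromal markers was 823 to 957 at 1 DPA, 1592 to 2295 at 3 DPA and 3258 to 5279 at 5 DPA, against 2412, 1858 and 779 in CTRL replicates 1, 2 and 3. The summed CPM of 10 acinar markers was 49744, 24279 and 5216 at 1 DPA, 8813, 12671 and 4318 at 3 DPA and 7779, 13621 and 27977 at 5 DPA, against 38103, 64923 and 10256 in CTRL, replicates 1 to 3 in each group. CTRL replicate 3 was the lowest CTRL library in all 3 lists. Mitochondrial transcripts took 1.61% to 1.76% of counts at 1 DPA, 2.01% to 2.35% at 3 DPA and 1.98% to 2.12% at 5 DPA, against 2.32% to 2.64% in CTRL, and their part in the results was not tested. Of 7 lymphocyte markers, Cd3e had 0 counts in every library.

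The promoters of Bax and Bbc3, the members called at 1 DPA, are shown because both genes belong to the textbook targets of the transcription factor p53. Each window runs from 250 bases before to 50 bases after the RefSeq transcription start on GRCm38.p6, 5′ to 3′ on the gene's own strand. The Bax window lies at chr7:45466849-45467148 on the minus strand, and the Bbc3 window, one of 3 RefSeq starts of that gene, at chr7:16310011-16310310 on the plus strand. Capitals mark a match to a searched motif, the p53 half-site in Bax and the FOXO site in Bbc3.
Bax: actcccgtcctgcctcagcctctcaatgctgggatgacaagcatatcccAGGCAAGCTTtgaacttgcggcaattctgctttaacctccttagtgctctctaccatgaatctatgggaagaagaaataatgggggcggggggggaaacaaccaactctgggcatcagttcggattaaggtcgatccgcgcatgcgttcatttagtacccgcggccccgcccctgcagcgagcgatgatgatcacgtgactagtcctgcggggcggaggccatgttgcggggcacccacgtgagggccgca
Bbc3: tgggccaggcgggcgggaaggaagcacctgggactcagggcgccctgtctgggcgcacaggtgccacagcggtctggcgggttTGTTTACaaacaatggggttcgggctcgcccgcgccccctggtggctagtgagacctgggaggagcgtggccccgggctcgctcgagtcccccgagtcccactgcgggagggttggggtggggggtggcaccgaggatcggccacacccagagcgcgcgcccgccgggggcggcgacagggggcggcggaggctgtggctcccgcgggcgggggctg
RefSeq windows were matched for 9 of the 10 members, 15 windows in all, and Pmaip1 had none. Both strands were searched for 8 motifs: the p53 half-site, the CArG box, the CRE (TGACGTCA), the CHOP-ATF4 composite element (TGATGNAAN), the FOXO site (GTAAACA), the EGR site (GCGTGGGCG), the AP-1 site (TGANTCA) and the ETS site (CCGGAAG). The p53 half-site match in the Bax window starts 201 bases before the transcription start, and 8.36% of 32817 promoter windows of this length hold such a match. The FOXO match in the Bbc3 window reads TGTTTAC, the motif on the other strand, and starts 167 bases before the transcription start. FOXO matches stand in 3.65% of all windows. The Bbc3 window shown is the only window of that gene with a match, and no Bbc3 window holds a p53 half-site match. Among the other members, 1 Bcl2l11 window holds a FOXO match and an ETS match. The Mcl1 window and 1 Bcl2l1 window hold an ETS match each, a motif found in 8.86% of all windows. The other windows of Bcl2l11 and Bcl2l1 hold no match. The remaining motifs had no match in the members' windows, and 1.63% of all windows hold the CArG box, 1.79% the CRE, 3.96% the CHOP-ATF4 element, 0.612% the EGR site and 7.81% the AP-1 site. A match says only that these letters are present.

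Against CTRL, Bax was higher at all 3 times, Bbc3 at 1 DPA and Bcl2 at 3 DPA, and no member was called lower at any time. Calls are adjusted p-values under 0.05 from edgeR's quasi-likelihood test, adjusted by the Benjamini-Hochberg method over all 17294 genes. At 1 DPA 2 of 10 members were called, both higher, where 51.6% of all genes tested were called, 29.2% higher and 22.4% lower. At 3 DPA 2 of 10 were called, both higher, beside 12.6% of all genes, 10.2% higher and 2.37% lower. At 5 DPA 1 of 10 was called, higher, beside 8.54% of all genes, 5.87% higher and 2.67% lower. The members' share of calls at 1 DPA was thus below that of all genes, and at 3 and 5 DPA it rested on 2 genes and 1 gene. The median log2 fold change of the members was 0.09 at 1 DPA, 0.19 at 3 DPA and 0.22 at 5 DPA, beside -0.05, -0.01 and 0.01 over all genes tested. The 3 comparisons share the CTRL libraries.

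The count at 1 DPA changed with the scaling, the tool and the libraries in the fit. When the 50 most abundant genes were left out of the library sizes, the median of all genes at 1 DPA moved by -0.13 on the log2 scale, and 6 members were called, Bax and Bbc3 higher and Bak1, Bcl2, Bcl2l1 and Pmaip1 lower. Under that scaling 43.3% of all calls at 1 DPA were higher, against 56.6% under the TMM scaling used throughout. Without CTRL replicate 3, the library with few macrophage and stromal transcripts, 6 members were called, with Bcl2l11 higher and Bak1, Bcl2 and Pmaip1 lower beside Bax and Bbc3. DESeq2 called 4 members, with Bak1 and Pmaip1 lower, and the fit without 3 DPA replicate 1 called 4, with Bcl2 and Bcl2l1 lower. Over all genes, 9746 were called without the 50 most abundant genes and 9445 with DESeq2, beside 8916 of 17294 with edgeR and TMM. Fits that left out 1 library called 7852 to 9619 genes in all.

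**Figure D1:**
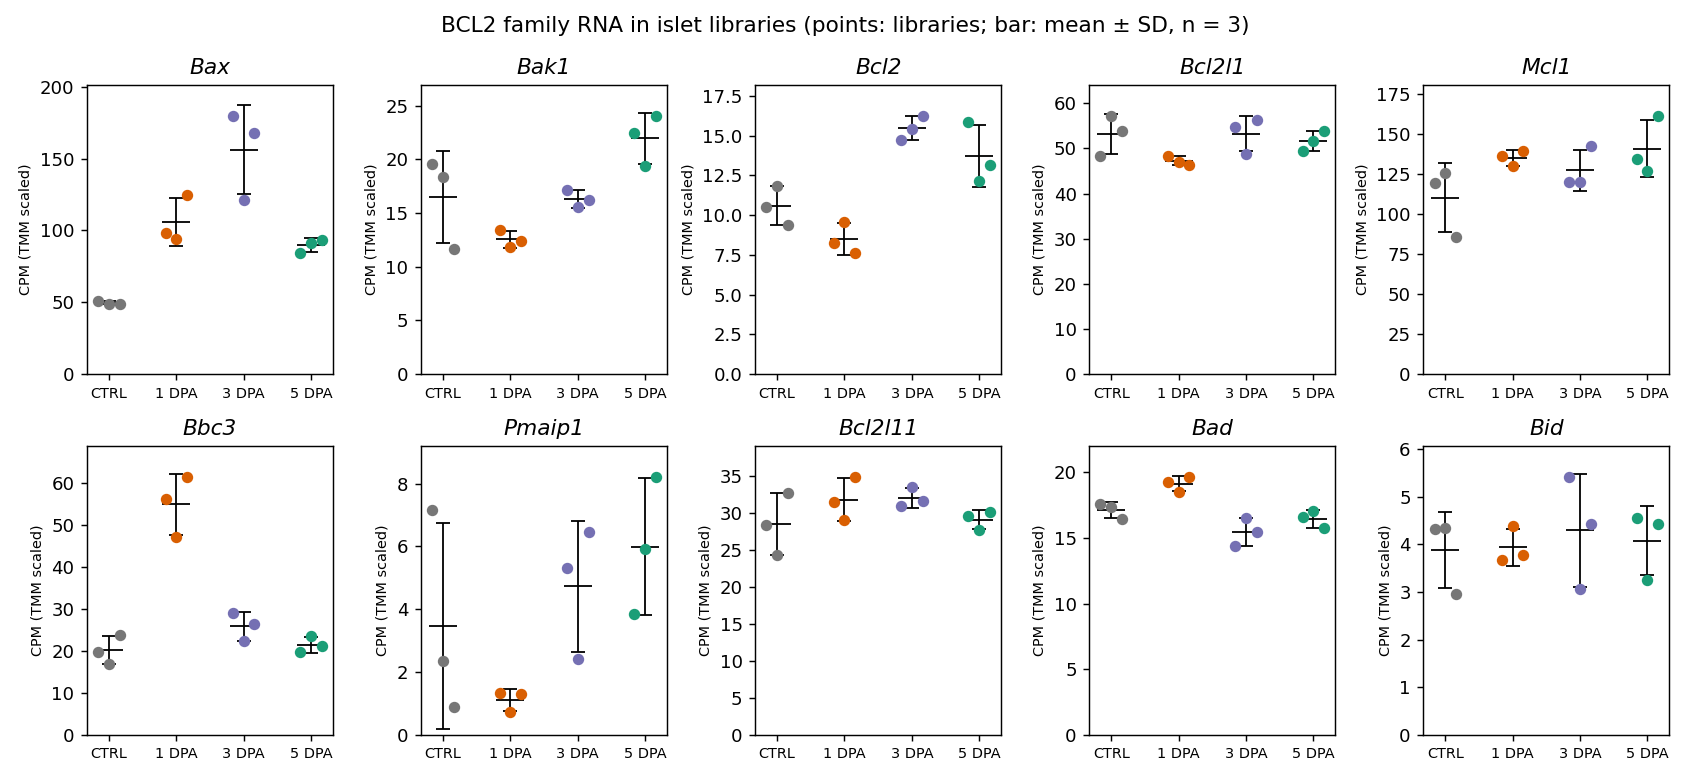
RNA level of each member in CPM (y axis, TMM scaled, from 0) in the 12 islet libraries by group (x axis). Points are libraries, and bars are mean ± SD (n = 3). Bax lies above CTRL at 1, 3 and 5 DPA with no overlap, and Bbc3 stands high at 1 DPA alone, with means of 55.0 CPM at 1 DPA and 20.2 CPM in CTRL.

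The effector Bax gave the broadest response of the family. Bax (ENSMUSG00000003873, mm10 chr7:45461697-45466898, minus strand) had 98.3, 93.9 and 124.7 CPM at 1 DPA, 179.7, 121.0 and 168.0 CPM at 3 DPA, and 84.2, 91.3 and 93.4 CPM at 5 DPA, against 51.1, 49.1 and 48.9 CPM in CTRL. Every library after toxin lay above every CTRL library, and the CTRL libraries lay close together. The log2 fold change was 1.09 ± 0.14 at 1 DPA (SE, edgeR adjusted p = 6.06e-05), a 2.13-fold level. At 3 DPA it was 1.65 ± 0.14 (SE, edgeR adjusted p = 2.55e-05), 3.15-fold, and at 5 DPA 0.85 ± 0.14 (SE, edgeR adjusted p = 0.00557), 1.80-fold. The calls at 1 and 3 DPA held under all 22 other settings. The call at 5 DPA was lost when the macrophage score (log2 fold change 0.67, adjusted p = 0.110 in edgeR) or the stromal score (0.77, adjusted p = 0.0955 in edgeR) entered the fit as a covariate.

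Between times, Bax was higher at 3 DPA than at 1 DPA by 0.57 ± 0.14 on the log2 scale (SE, edgeR adjusted p = 0.00637), although 1 library of 3 DPA, replicate 2, fell below the highest 1 DPA library. It was lower at 5 DPA than at 3 DPA by a log2 fold change of -0.80 ± 0.14 (SE, edgeR adjusted p = 0.0184). The highest level was therefore at 3 DPA. The call between 3 and 1 DPA was lost with the macrophage covariate (0.33, edgeR adjusted p = 0.252) and with the stromal covariate (0.49, edgeR adjusted p = 0.0697). The call between 5 and 3 DPA was lost with the stromal covariate (-0.86, edgeR adjusted p = 0.0553) and without 3 DPA replicate 1 (-0.66), 3 DPA replicate 3 (-0.75), 5 DPA replicate 1 (-0.76), 5 DPA replicate 2 (-0.82) or 5 DPA replicate 3 (-0.83), with edgeR adjusted p-values of 0.0535 to 0.104.

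The other effector, Bak1 (ENSMUSG00000057789, mm10 chr17:27019810-27029009, minus strand), was not called against CTRL at any time. Bak1 had 13.4, 11.8 and 12.4 CPM at 1 DPA, 17.2, 15.6 and 16.2 CPM at 3 DPA, and 22.4, 19.4 and 24.1 CPM at 5 DPA, against 19.5, 18.3 and 11.6 CPM in CTRL. CTRL replicate 3 was lower than any 1 DPA library, while the 3 times after toxin did not overlap and stood in the order 1, 3 and 5 DPA. Against CTRL the log2 fold change was -0.39 ± 0.16 at 1 DPA (SE, edgeR adjusted p = 0.0599), -0.02 ± 0.16 at 3 DPA (edgeR adjusted p = 0.965) and 0.41 ± 0.16 at 5 DPA (edgeR adjusted p = 0.137). Bak1 at 1 DPA was called lower without CTRL replicate 3 (-0.59, edgeR adjusted p = 0.000590), with no filter on low counts (-0.42, edgeR adjusted p = 0.0476) and with DESeq2 (-0.40, DESeq2 adjusted p = 0.0466). Between times, Bak1 was higher at 5 DPA than at 1 DPA by 0.81 ± 0.16 (SE, edgeR adjusted p = 0.00134). That difference came to -0.11 with the macrophage covariate (edgeR adjusted p = 0.730) and to 0.15 with the stromal covariate (edgeR adjusted p = 0.583). Another gene, Ggnbp1, overlaps Bak1 on the opposite strand, with 8338 counts over the 12 libraries, and reads of the overlap cannot be told apart where counting ignored strand.

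Among the guardians, Bcl2 was called higher at 3 DPA and the others were not called. Bcl2 (ENSMUSG00000057329, mm10 chr1:106538178-106714274, minus strand), the founding survival gene of the family, had 8.23, 9.58 and 7.64 CPM at 1 DPA, 14.7, 15.4 and 16.2 CPM at 3 DPA, and 15.9, 12.1 and 13.2 CPM at 5 DPA, against 10.5, 11.9 and 9.40 CPM in CTRL. All libraries at 3 and 5 DPA lay above all CTRL libraries, and those at 1 DPA overlapped the lowest CTRL library. The log2 fold change against CTRL was -0.32 ± 0.13 at 1 DPA (SE, edgeR adjusted p = 0.0590), 0.55 ± 0.13 at 3 DPA (edgeR adjusted p = 0.0145) and 0.38 ± 0.13 at 5 DPA (edgeR adjusted p = 0.0950). The call at 3 DPA was lost without 3 DPA replicate 1 (0.54, edgeR adjusted p = 0.0528) or 3 DPA replicate 3 (0.51, edgeR adjusted p = 0.0572). Bcl2 at 1 DPA was called lower without CTRL replicate 3 (-0.40), 1 DPA replicate 2 (-0.41), 3 DPA replicate 1 (-0.37) or 5 DPA replicate 1 (-0.32), with edgeR adjusted p-values of 0.0290 to 0.0444.

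Bcl2 was higher at both later times than at 1 DPA. The log2 fold change was 0.87 ± 0.13 for 3 DPA against 1 DPA (SE, edgeR adjusted p = 0.000257) and 0.69 ± 0.13 for 5 DPA against 1 DPA (SE, edgeR adjusted p = 0.000840). The first held under all 22 other settings, and the second was lost with the macrophage covariate (0.51, edgeR adjusted p = 0.229) and the stromal covariate (0.40, edgeR adjusted p = 0.190).

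Bcl2l1 (ENSMUSG00000007659, mm10 chr2:152780668-152831728, minus strand), the BCL-XL gene, had 48.3, 47.1 and 46.4 CPM at 1 DPA, 54.7, 48.9 and 56.2 CPM at 3 DPA, and 49.4, 51.7 and 53.9 CPM at 5 DPA, against 48.3, 57.2 and 53.8 CPM in CTRL. Its groups differed little: the 95% interval of the log2 fold change was -0.33 to -0.01 at 1 DPA (edgeR adjusted p = 0.0730), -0.16 to 0.16 at 3 DPA (edgeR adjusted p = 0.980) and -0.20 to 0.12 at 5 DPA (edgeR adjusted p = 0.787). Bcl2l1 at 1 DPA was called lower without CTRL replicate 1 (-0.27, edgeR adjusted p = 0.0136) and without 3 DPA replicate 1 (-0.22, edgeR adjusted p = 0.0315).

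Mcl1 (ENSMUSG00000038612, mm10 chr3:95658788-95663176, plus strand), which makes a short-lived guardian, had 136.0, 129.7 and 139.4 CPM at 1 DPA, 119.9, 119.7 and 142.1 CPM at 3 DPA, and 134.1, 126.9 and 161.1 CPM at 5 DPA, against 119.4, 125.2 and 85.5 CPM in CTRL. All libraries at 1 and 5 DPA lay above all CTRL libraries, by little except for CTRL replicate 3. The 95% interval of the log2 fold change was -0.0029 to 0.59 at 1 DPA (edgeR adjusted p = 0.0890), -0.09 to 0.51 at 3 DPA (edgeR adjusted p = 0.391) and 0.06 to 0.65 at 5 DPA (edgeR adjusted p = 0.133). Mcl1 was called higher at 1 DPA with the macrophage covariate (0.70, edgeR adjusted p = 0.000883) and with the stromal covariate (0.51, edgeR adjusted p = 0.00307). It was called lower for 3 against 1 DPA with the macrophage covariate (-0.52, edgeR adjusted p = 0.0122) and the stromal covariate (-0.37, edgeR adjusted p = 0.0446). For 5 against 1 DPA it was called lower with the macrophage covariate (-0.66, edgeR adjusted p = 0.0305).

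**Figure D2:**
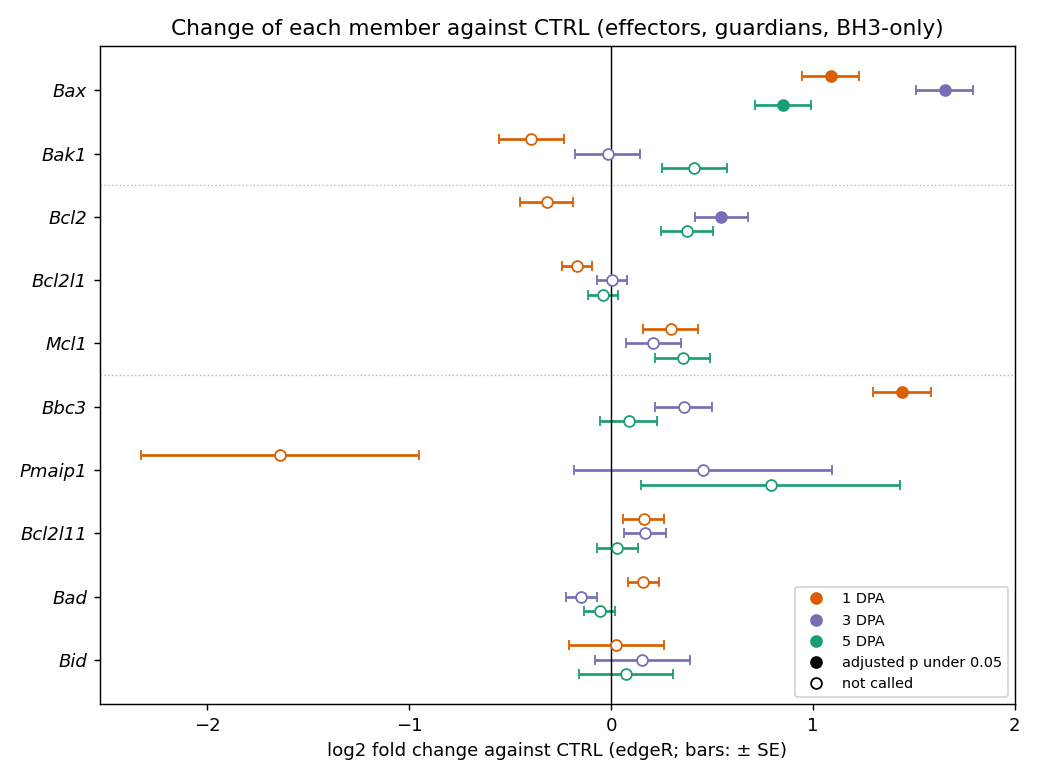
Log2 fold change against CTRL (x axis, edgeR estimate, bars ± SE) of each member (rows, effectors at the top, then guardians, then BH3-only genes) at 1, 3 and 5 DPA. Filled points passed an adjusted p under 0.05: Bax at all 3 times, Bbc3 at 1 DPA (1.44) and Bcl2 at 3 DPA (0.55).

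The BH3-only gene Bbc3, which encodes PUMA, was called against CTRL at 1 DPA, with the larger change of the 2 members called then, and at no later time. Bbc3 (ENSMUSG00000002083, mm10 chr7:16308393-16318205, plus strand) had 56.3, 47.1 and 61.6 CPM at 1 DPA, 29.2, 22.3 and 26.3 CPM at 3 DPA, and 19.9, 23.6 and 21.1 CPM at 5 DPA, against 19.9, 17.0 and 23.8 CPM in CTRL. The 1 DPA libraries lay above all 9 others, and those at 3 and 5 DPA overlapped CTRL. At 1 DPA the log2 fold change was 1.44 ± 0.14 (SE, edgeR adjusted p = 7.31e-06), a 2.72-fold level. It was 0.36 ± 0.14 at 3 DPA (SE, edgeR adjusted p = 0.133), a value that passed without CTRL replicate 3 (0.50, edgeR adjusted p = 0.0401), and 0.09 ± 0.14 at 5 DPA (SE, edgeR adjusted p = 0.756). Against 1 DPA, Bbc3 was lower at 3 DPA (-1.08 ± 0.14, SE, edgeR adjusted p = 9.70e-05) and at 5 DPA (-1.35 ± 0.14, SE, edgeR adjusted p = 1.35e-05). The call at 1 DPA and both calls between times held under all 22 other settings.

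Pmaip1 (ENSMUSG00000024521, mm10 chr18:66458533-66465565, plus strand) encodes NOXA, which binds MCL1. Its counts were 27 to 313 per library. Pmaip1 had 1.32, 0.71 and 1.30 CPM at 1 DPA, 5.31, 2.40 and 6.47 CPM at 3 DPA, and 3.84, 5.93 and 8.22 CPM at 5 DPA, against 7.17, 2.35 and 0.89 CPM in CTRL. The CTRL libraries spanned nearly the whole range of the study, and edgeR called no time against CTRL. The log2 fold change was -1.64 ± 0.69 at 1 DPA (SE, edgeR adjusted p = 0.0690), 0.46 ± 0.64 at 3 DPA (edgeR adjusted p = 0.728) and 0.79 ± 0.64 at 5 DPA (edgeR adjusted p = 0.498). Without CTRL replicate 3, Pmaip1 was called lower at 1 DPA (-2.10, edgeR adjusted p = 0.0103). DESeq2 also called it lower at 1 DPA (-1.65, DESeq2 adjusted p = 0.0143). Without CTRL replicate 1 the log2 fold change shrank to -0.59 at 1 DPA, and was 1.53 at 3 DPA and 1.88 at 5 DPA. Without CTRL replicate 3 it was -0.0010 at 3 DPA and 0.33 at 5 DPA.

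Pmaip1 was higher at 3 DPA than at 1 DPA by 2.10 ± 0.69 (SE, edgeR adjusted p = 0.0307) and higher at 5 DPA than at 1 DPA by 2.43 ± 0.69 (SE, edgeR adjusted p = 0.0129). Pmaip1 was lowest in the 1 DPA libraries and CTRL replicate 3, which also had the fewest macrophage and stromal transcripts. Above these, it did not rank with the macrophage sum in every library. CTRL replicate 2 (393 macrophage CPM) had 2.35 CPM and 5 DPA replicate 1 (689) had 3.84 CPM, against 6.47 CPM in 3 DPA replicate 3 (405). The marker sums also differed between the times, and their part in the Pmaip1 values was not tested. With the macrophage covariate the log2 fold change came to -0.34 for 3 against 1 DPA (edgeR adjusted p = 0.644) and -1.42 for 5 against 1 DPA (edgeR adjusted p = 0.158). With the stromal covariate the values were 0.63 (edgeR adjusted p = 0.488) and 0.11 (edgeR adjusted p = 0.944). The call for 3 against 1 DPA was also lost with limma-voom (2.10, limma adjusted p = 0.0700), with no filter on low counts (edgeR adjusted p = 0.0521) and without any 1 of 5 libraries. These were 1 DPA replicate 1 (2.24), 1 DPA replicate 2 (1.85), 1 DPA replicate 3 (2.24), 3 DPA replicate 1 (2.02) and 3 DPA replicate 3 (1.80), with edgeR adjusted p-values of 0.0694 to 0.101. The call for 5 against 1 DPA was lost without 1 DPA replicate 2 (2.19, edgeR adjusted p = 0.0516).

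**Figure D3:**
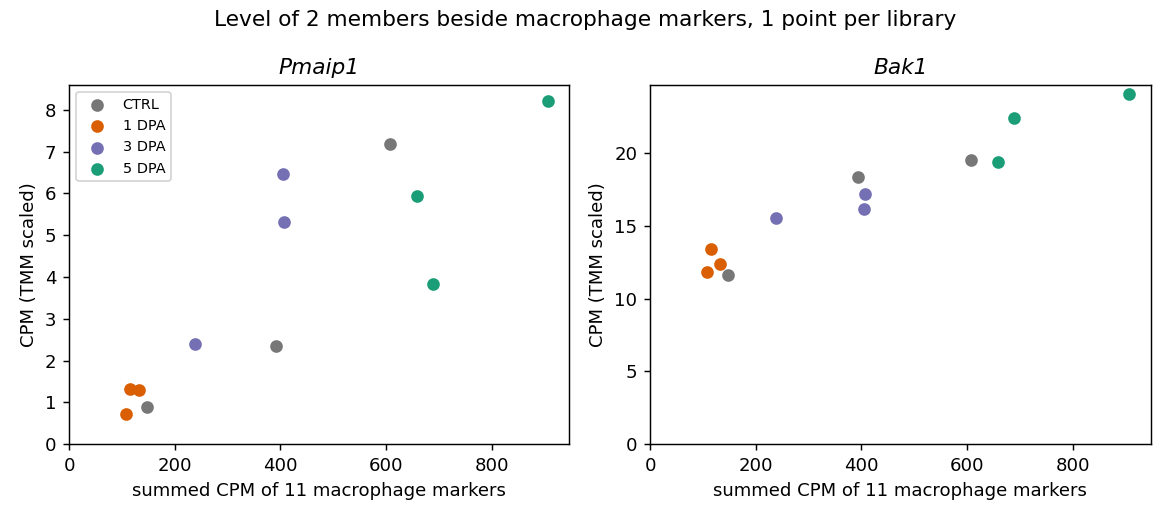
Level of Pmaip1 and Bak1 in CPM (y axes) beside the summed CPM of 11 macrophage markers (x axes), 1 point per library, coloured by group. The 1 DPA libraries (108 to 132 macrophage CPM) and CTRL replicate 3 (147) stand at the low end of both axes, and the 5 DPA libraries (659 to 908) at the high end of the marker axis.

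Bad (ENSMUSG00000024959, mm10 chr19:6941861-6951899, plus strand) makes a protein that binds guardians unless 14-3-3 proteins hold it after phosphorylation. Bad had 19.2, 18.5 and 19.7 CPM at 1 DPA, 14.4, 16.6 and 15.5 CPM at 3 DPA, and 16.6, 17.0 and 15.7 CPM at 5 DPA, against 17.5, 17.4 and 16.4 CPM in CTRL. The 1 DPA libraries lay just above all others. Against CTRL the log2 fold change was 0.16 ± 0.08 at 1 DPA (SE, edgeR adjusted p = 0.0966), -0.15 ± 0.08 at 3 DPA (edgeR adjusted p = 0.265) and -0.06 ± 0.08 at 5 DPA (edgeR adjusted p = 0.701), none of them called. Bad was lower at 3 DPA than at 1 DPA (-0.31 ± 0.08, SE, edgeR adjusted p = 0.00666) and at 5 DPA than at 1 DPA (-0.22 ± 0.08, SE, edgeR adjusted p = 0.0290). The first call was lost when the 50 most abundant genes were left out of the library sizes (-0.20, edgeR adjusted p = 0.0582) and with the macrophage covariate (-0.32, edgeR adjusted p = 0.0767). The second was lost under 12 of 22 other settings, whose estimates ran from -0.28 to -0.06. Among them were the fits without CTRL replicates 1 or 2, 1 DPA replicates 1 or 3, 3 DPA replicate 1, or 5 DPA replicates 1 or 3. Gpr137 overlaps Bad on the opposite strand, with 15297 counts over the 12 libraries.

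Bcl2l11 (ENSMUSG00000027381, mm10 chr2:128126038-128162547, plus strand), the BIM gene, had 31.6, 29.1 and 35.0 CPM at 1 DPA, 31.0, 33.6 and 31.6 CPM at 3 DPA, and 29.6, 27.7 and 30.1 CPM at 5 DPA, against 28.4, 24.4 and 32.8 CPM in CTRL. All 3 times overlapped CTRL. The 95% interval of the log2 fold change was -0.06 to 0.38 at 1 DPA (edgeR adjusted p = 0.206), -0.05 to 0.39 at 3 DPA (edgeR adjusted p = 0.352) and -0.19 to 0.25 at 5 DPA (edgeR adjusted p = 0.888). Bcl2l11 was called higher at 1 DPA without CTRL replicate 3 (0.27, edgeR adjusted p = 0.0289).

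Bid (ENSMUSG00000004446, mm10 chr6:120891930-120916853, minus strand) encodes the protein that caspase 8 cleaves to pass a death receptor signal to the mitochondrion. Bid had 3.66, 4.38 and 3.77 CPM at 1 DPA, 5.42, 3.06 and 4.42 CPM at 3 DPA, and 4.56, 3.25 and 4.41 CPM at 5 DPA, against 4.32, 4.35 and 2.95 CPM in CTRL. All groups overlapped one another. At 108 to 256 counts per library, the 95% interval was wide, -0.49 to 0.54 at 1 DPA, -0.36 to 0.67 at 3 DPA and -0.44 to 0.59 at 5 DPA, and the edgeR adjusted p-values were 0.932, 0.745 and 0.881. Bcl2l13, a member called higher at 1 DPA in the wider family, overlaps the end of Bid on the opposite strand, with 43752 counts over the 12 libraries.

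Between the times after toxin, Bcl2 and Pmaip1 were higher and Bad and Bbc3 lower at both later times than at 1 DPA, and Bax was lower at 5 DPA than at 3 DPA. For 3 DPA against 1 DPA 5 of 10 members were called, Bax, Bcl2 and Pmaip1 higher and Bad and Bbc3 lower, beside 45.1% of all genes, 20.4% higher and 24.7% lower. For 5 DPA against 1 DPA 5 of 10 were called, Bak1, Bcl2 and Pmaip1 higher and Bad and Bbc3 lower, beside 56.1% of all genes, 26.3% higher and 29.8% lower. For 5 DPA against 3 DPA 1 of 10 was called, Bax lower, beside 3.16% of all genes, 0.705% higher and 2.46% lower. With the replicate number as a block, 340 genes in all were called for 5 against 3 DPA, beside 547 without it, and Bax was still called. The members' shares against 1 DPA were close to those of all genes. The median log2 fold change of the members was 0.15 for 3 against 1 DPA, 0.05 for 5 against 1 DPA and -0.06 for 5 against 3 DPA, beside 0.04, 0.01 and -0.01 over all genes. Without the 50 most abundant genes in the library sizes, the median of all genes moved by 0.11 for 3 against 1 DPA and by 0.15 for 5 against 1 DPA. Over all genes, 8255 and 10056 were then called, beside 7805 and 9703 under TMM. Higher calls made up 59.5% and 60.7% of all calls under that scaling, against 45.3% and 46.9% under TMM. Under that scaling 6 members were called for 3 against 1 DPA, 5 higher and 1 lower, with Bak1 (0.49, edgeR adjusted p = 0.0259) and Bcl2l1 (0.28, edgeR adjusted p = 0.00472) gained and Bad lost. For 5 against 1 DPA 5 were called, 4 higher and 1 lower, with Bcl2l1 (0.28, edgeR adjusted p = 0.00367) gained and Bad lost. Differences not called between times passed in some fits with 1 library left out. Bcl2l1 was called higher at 3 DPA than at 1 DPA without CTRL replicate 1 (0.19), CTRL replicate 2 (0.19) or 3 DPA replicate 2 (0.23), with edgeR adjusted p-values of 0.0325 to 0.0443. Without CTRL replicate 3, Bak1 was called higher for 3 against 1 DPA (0.38, edgeR adjusted p = 0.00652) and for 5 against 3 DPA (0.43, edgeR adjusted p = 0.0256). Over the 4 groups at once, 5 of 10 members were called, Bax, Bak1, Bcl2, Bad and Bbc3, beside 57.4% of all genes. Among fits that left out 1 library, Bad lost that call without 1 DPA replicate 1, 1 DPA replicate 3, 3 DPA replicate 1 or 3 DPA replicate 3. Pmaip1 gained it without CTRL replicate 1, CTRL replicate 3 or 3 DPA replicate 2, and Bcl2l1 without CTRL replicate 1. With the macrophage or the stromal covariate, Bak1 lost the call (edgeR adjusted p = 0.549 and 0.630), as did Bad (0.141 and 0.0782), and Mcl1 gained it (0.00405 and 0.0184). The comparisons share libraries.

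Levels per length, in the authors' deposited TPM, a unit that divides by transcript length, put Bax and Mcl1 above the other members in every group. The TPM were used as deposited, without TMM scaling, so differences between groups are not the same as in CPM. Bcl2l1 averaged 26.1 TPM at 1 DPA and 25.0 TPM in CTRL, but 47.3 CPM at 1 DPA and 53.1 CPM in CTRL. Bax averaged 172.0 ± 48.5 TPM at 1 DPA, 231.0 ± 51.8 TPM at 3 DPA and 134.0 ± 4.68 TPM at 5 DPA, against 68.3 ± 4.74 TPM in CTRL (SD, n = 3). Mcl1 averaged 100.3 ± 15.0 TPM at 1 DPA, 86.3 ± 8.0 TPM at 3 DPA and 97.2 ± 13.7 TPM at 5 DPA, against 69.3 ± 11.3 TPM in CTRL (SD, n = 3). The 2 genes overlapped in CTRL, and at each time after toxin every library had more Bax than any library of that time had Mcl1.

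Below them in CTRL stood Bcl2l1 (25.0 TPM), Bbc3 (20.7), Bad (18.4) and Bak1 (14.8), each overlapping its neighbour in that order, then Bcl2l11 (7.73). Pmaip1 (2.86), Bcl2 (2.49) and Bid (2.35) came last and overlapped. Bbc3 changed its place: at 1 DPA its 66.0 ± 15.2 TPM stood apart between Mcl1 and Bcl2l1 (26.1 ± 2.84), while at 3 DPA its 28.4 ± 4.66 TPM overlapped Bcl2l1 (27.0 ± 2.50). At 5 DPA Bbc3 (23.8 ± 0.90) stood below Bcl2l1 (26.6 ± 1.20) and overlapped Bak1 (21.6 ± 3.05). Bcl2 was the lowest of the guardians at every time, with 2.34 ± 0.31 TPM at 1 DPA, 3.92 ± 0.12 TPM at 3 DPA and 3.55 ± 0.69 TPM at 5 DPA, against 2.49 ± 0.16 TPM in CTRL.

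**Figure D4:**
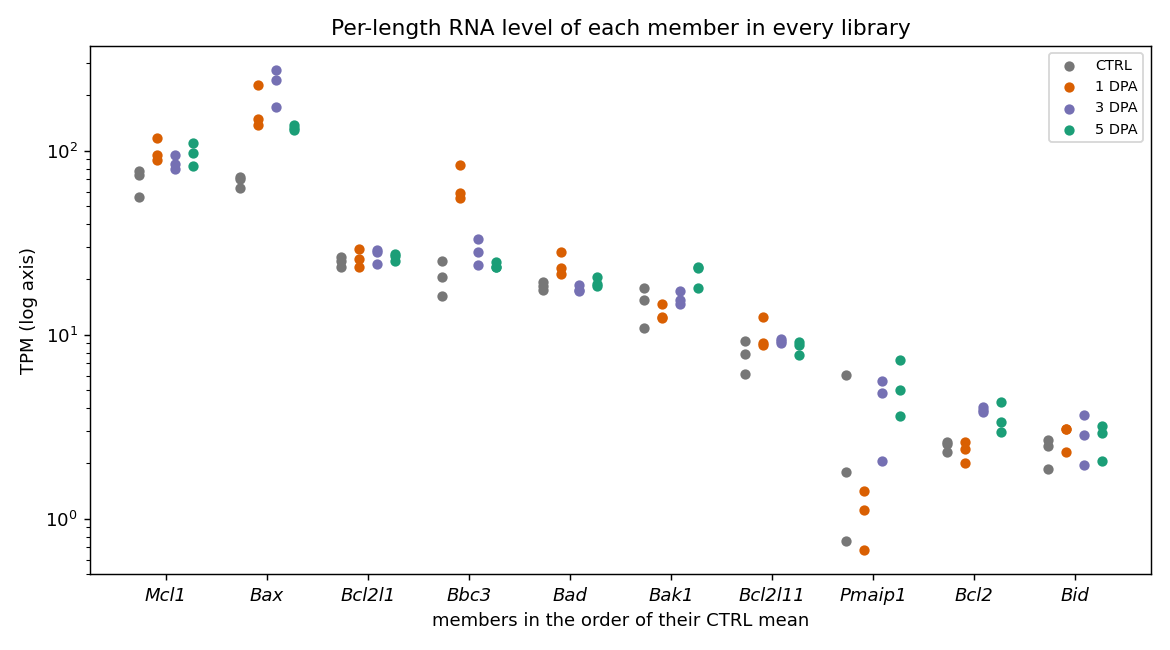
Level per length of each member in TPM (y axis, log scale) in every library, ordered along the x axis by the CTRL mean and coloured by group. Mcl1 and Bax overlap in CTRL (69.3 and 68.3 TPM on average), and Bax stands above Mcl1 at 1, 3 and 5 DPA.

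Summed by role, RNA of the 2 effectors was higher after toxin in proportion to summed RNA of Bcl2, Bcl2l1 and Mcl1, as a description with no test. The ratio of summed TPM was 1.33, 1.31 and 1.63 at 1 DPA, 2.49, 1.76 and 2.04 at 3 DPA, and 1.21, 1.33 and 1.15 at 5 DPA, against 0.869, 0.769 and 0.949 in CTRL. All libraries after toxin lay above CTRL. Bax made up most of the effector sum, with a TPM ratio of Bax to Bak1 of 12.9 ± 2.22 at 1 DPA, 14.6 ± 2.34 at 3 DPA and 6.28 ± 0.79 at 5 DPA, against 4.83 ± 1.37 in CTRL. The summed TPM of the 5 BH3-only genes over that of the guardians was 0.811, 0.742 and 0.864 at 1 DPA, 0.582, 0.522 and 0.499 at 3 DPA, and 0.465, 0.527 and 0.429 at 5 DPA, against 0.548, 0.433 and 0.652 in CTRL. Here the 1 DPA libraries alone stood above CTRL, and the later times overlapped it. RNA ratios say nothing of the amounts of protein.

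**Figure D5:**
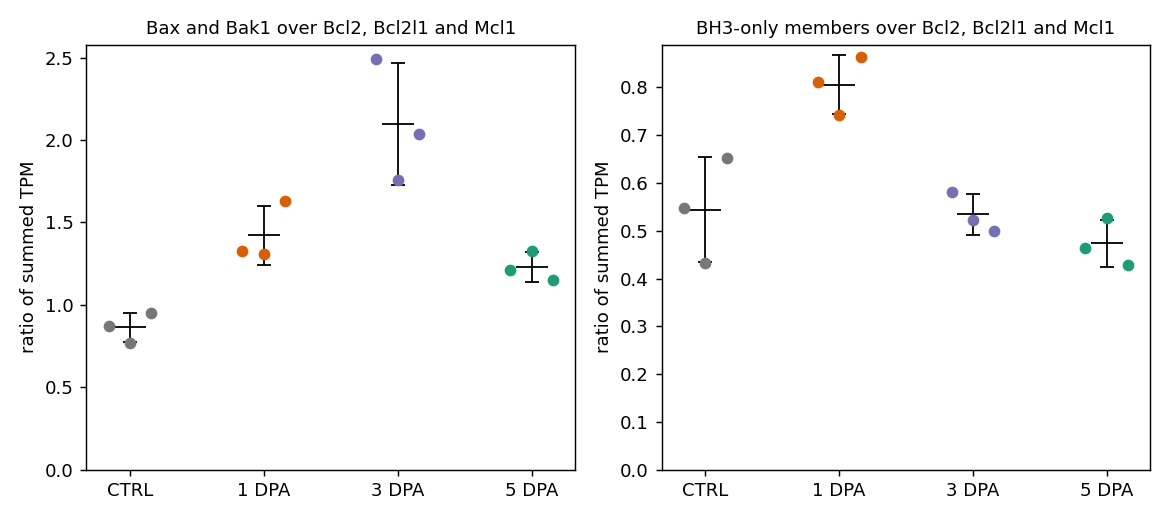
Ratio of summed TPM (y axes, from 0) of Bax and Bak1 (left) and of the 5 BH3-only members (right) to the guardians Bcl2, Bcl2l1 and Mcl1, by group (x axes). The guardian Bcl2l2 is not in the sum. Points are libraries and bars are mean ± SD (n = 3): the effector ratio averages 2.10 at 3 DPA and 0.862 in CTRL, and the BH3-only ratio 0.806 at 1 DPA and 0.544 in CTRL.

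Of 15 further genes of the family, 14 were tested. At 1 DPA 3 were called higher and 4 lower against CTRL, at 3 DPA 2 higher and 0 lower, and at 5 DPA 0. These counts stand beside 51.6%, 12.6% and 8.54% of all genes called at 1, 3 and 5 DPA, the shares that apply to each list of this kind. The list's median log2 fold change was -0.36 at 1 DPA, -0.05 at 3 DPA and 0.35 at 5 DPA. Bcl2l13, which marks mitochondria for autophagy, averaged 137.8 ± 5.02 CPM at 1 DPA, 89.9 ± 7.35 CPM at 3 DPA and 66.9 ± 2.22 CPM at 5 DPA, against 64.2 ± 3.36 CPM in CTRL (SD, n = 3). Its log2 fold change was 1.10 ± 0.07 at 1 DPA (SE, edgeR adjusted p = 2.57e-07) and 0.48 ± 0.07 at 3 DPA (SE, edgeR adjusted p = 0.000475). Bcl2l12 was called higher at 1 DPA (2.15 ± 0.28) and 3 DPA (1.46 ± 0.28), and Bcl2l15 at 1 DPA (3.77 ± 0.63), with means of 0.92 CPM at 1 DPA and 0.067 CPM in CTRL. Bcl2a1b, a guardian gene of blood cells, was lower at 1 DPA (-2.62 ± 0.72, SE, edgeR adjusted p = 0.0117), with a mean of 0.65 ± 0.13 CPM at 1 DPA and 4.01 ± 3.73 CPM in CTRL (SD, n = 3). It has near-identical copies, so its counts are uncertain. The macrophage markers were also low at 1 DPA, with 9 of 11 called lower, and their part in the Bcl2a1b value was not tested.

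Downstream of the mitochondrion, 3 of 15 genes of caspase activation were called higher and 6 lower at 1 DPA, 1 higher and 0 lower at 3 DPA, and 1 higher and 1 lower at 5 DPA, beside 51.6%, 12.6% and 8.54% of all genes called. The list's median log2 fold change was -0.13, 0.0049 and 0.07 at the 3 times. Apaf1, the scaffold that cytochrome c assembles, averaged 8.23 ± 0.81 CPM at 1 DPA, against 14.0 ± 1.76 CPM in CTRL (SD, n = 3), a log2 fold change of -0.76 ± 0.13 (SE, edgeR adjusted p = 0.000364). The caspase and NF-kB regulators Birc3 (2.54 ± 0.33) and Birc2 (0.72 ± 0.11) were higher at 1 DPA, with Birc3 at 95.5 ± 15.4 CPM at 1 DPA, against 16.4 ± 6.12 CPM in CTRL (SD, n = 3). None of these 3 was called at 3 or 5 DPA.

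Of 11 genes of the death receptor route, which feeds Bid, 2 were called higher and 5 lower at 1 DPA, and 1 higher and 0 lower at both 3 and 5 DPA, beside 51.6%, 12.6% and 8.54% of all genes called. The list's median log2 fold change was -0.45, -0.04 and 0.23 at the 3 times. The receptor Tnfrsf10b was the gene called at all 3 times, with log2 fold changes of 1.14 ± 0.19 at 1 DPA, 1.06 ± 0.19 at 3 DPA and 0.79 ± 0.19 at 5 DPA (SE, edgeR adjusted p = 0.000348, 0.00258 and 0.0254). At 1 DPA the adaptor Traf2 was higher (1.28 ± 0.10), and the initiator Casp8 (-0.64 ± 0.11) and the receptor Tnfrsf1a (-0.53 ± 0.10) were lower. Apaf1, Casp8 and Tnfrsf1a had their lowest mean at 1 DPA and their highest at 5 DPA, as the macrophage sums (118 CPM at 1 DPA, 350 at 3 DPA and 752 at 5 DPA, against 382 in CTRL) and the stromal sums (883, 2030 and 3959 CPM, against 1683 in CTRL) did. The sums of 8 endothelial markers took the same order (735, 970 and 1072 CPM at 1, 3 and 5 DPA, against 966 in CTRL). The duct sums (175 CPM at 1 DPA, against 248 in CTRL), the alpha sums and the joint delta and PP sums were also lowest at 1 DPA. The part of these cells in the values was not tested.

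Of 10 genes around p53, the regulator known to switch on Bax, Bbc3 and Pmaip1, 7 were called higher at 1 DPA, 7 at 3 DPA and 4 at 5 DPA, with 0 lower, beside 29.2%, 10.2% and 5.87% of all genes called higher. The list's median log2 fold change was 0.74, 0.63 and 0.34 at the 3 times. Aen, a p53-induced nuclease, averaged 167 ± 5.53 CPM at 1 DPA, 83.6 ± 9.03 CPM at 3 DPA and 52.5 ± 4.44 CPM at 5 DPA, against 33.8 ± 1.95 CPM in CTRL (SD, n = 3). Cdkn1a, the cell cycle inhibitor p21, stood highest at 3 DPA with 286 ± 99.6 CPM, beside 94.7 ± 8.31 CPM at 1 DPA and 131 ± 17.9 CPM at 5 DPA, against 37.4 ± 7.88 CPM in CTRL (SD, n = 3). Bbc3 had its highest mean at 1 DPA, as Aen did, and Bax at 3 DPA, as Cdkn1a did, while Pmaip1 had its lowest mean at 1 DPA (1.11 CPM, against 3.47 CPM in CTRL). The part of p53 in the values of the members was not tested. Trp53, the p53 gene, was higher at 1 DPA (0.93 ± 0.10, SE, edgeR adjusted p = 1.01e-05) and 3 DPA (0.32 ± 0.10, SE, edgeR adjusted p = 0.0494). The receptor Eda2r was higher at all 3 times, by 1.47 ± 0.18, 1.66 ± 0.18 and 0.95 ± 0.18.

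Of 10 stress transcription genes, 5 were called higher and 2 lower at 1 DPA, 5 higher and 0 lower at 3 DPA, and 5 higher and 1 lower at 5 DPA, beside 51.6%, 12.6% and 8.54% of all genes called. The list's median log2 fold change was 0.51, 0.37 and 0.32 at the 3 times. Ddit3, which encodes CHOP, averaged 50.3 ± 3.09 CPM at 1 DPA, 36.4 ± 7.62 CPM at 3 DPA and 22.9 ± 2.06 CPM at 5 DPA, against 13.7 ± 0.52 CPM in CTRL (SD, n = 3), and was called at all 3 times. Its partner in the integrated stress response, Atf4, was higher by 1.19 ± 0.10, 0.59 ± 0.10 and 0.40 ± 0.10 on the log2 scale at 1, 3 and 5 DPA. Foxo3 (1.09, 2.02 and 0.91) and Jun (0.74, 2.77 and 1.69) were also called at all 3 times, both with the highest value at 3 DPA.

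Of 9 genes whose proteins hold or turn over family members, 2 were called higher and 1 lower at 1 DPA, 1 higher and 1 lower at 3 DPA, and 1 higher and 3 lower at 5 DPA, beside 51.6%, 12.6% and 8.54% of all genes called. The list's median log2 fold change was 0.09, 0.08 and 0.03 at the 3 times. Ywhae, a 14-3-3 gene, was higher at all 3 times (0.64 ± 0.09, 0.95 ± 0.09 and 0.41 ± 0.09). Usp9x, whose product removes ubiquitin from MCL1, was lower at 3 DPA (-0.28 ± 0.06) and 5 DPA (-0.39 ± 0.06), and Huwe1, a ubiquitin ligase of MCL1, at 5 DPA (-0.38 ± 0.09). Dynll1, a dynein light chain that binds BIM, was not called against CTRL (-0.32 ± 0.13 at 1 DPA, SE, edgeR adjusted p = 0.0570).

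For the 5 members called over the 4 groups, the genes with the most similar pattern were ranked by Pearson's r of log2 CPM over the 12 libraries, among 12929 candidates. The points share library and depth, and r is a description. Bax was nearest to Syf2 (r = 0.990), Sirt1 (0.979) and Rpl27 (0.978), Bak1 to Acss1 (0.990), Ppp1r18 (0.982) and Rasa3 (0.977), and Bbc3 to Nrf1 (0.993), Dctn2 (0.992) and Zfand3 (0.989). Bcl2 was nearest to Pbdc1 (0.958), Plat (0.956) and Map2k3 (0.947), and Bad to Uaca (0.931), Erc1 (0.927) and Slx1b (0.919).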

How the data were processed

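RNA was sequenced from 12 islet libraries, 3 in each of 4 groups taken from the labels. Per the labels' protocols, the extraction used an RNeasy Mini kit and the libraries a stranded QIAseq mRNA kit. Counts (whole numbers of reads) and TPM per gene and library were deposited by the authors, per the file headers. The submitters' processing notes name the build mm10. The sources used here do not give the aligner, the counter, the annotation release or the use of strand. In the deposited table, 12 count and 12 TPM columns were used, and 24 other per-sample columns were not used.

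Genes were filtered with edgeR's filterByExpr (minimum count 10) and scaled by TMM. The test was edgeR's quasi-likelihood F-test with robust estimation, in 1 fit over all 12 libraries with a mean for each group. CPM are TMM scaled, and standard errors come from the F statistic. Intervals are unadjusted 95% intervals. Named genes are all 10 members, up to 4 called genes of smallest p per list over the 4 groups, and 3 genes most like each called member, from genes whose mean log2 CPM was 1 or more. One gene that this rule names is not reported here. Bcl2l2 is given outside this rule, beside the role sums, since the guardian sum leaves it out. Members and lists were chosen with earlier results of these data known. The 22 other settings were 12 fits that each left out 1 library, and 10 more: RLE scaling, limma-voom, DESeq2, no filter, library sizes without the 50 most abundant genes, a fit of only the groups compared, a replicate block, and a macrophage, stromal or acinar score (mean log2 CPM, prior count 2) as a covariate. Of 12 macrophage markers, 11 were in the table. The fit was tested on simulated counts. Software was edgeR 4.0.16, DESeq2 1.42.0 and limma 3.58.1 under R 4.3.3. Positions come from GENCODE M21, where 48349 identifiers matched.

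The labels do not state that each library is a separate animal. The p-values therefore reflect the spread between these libraries, part or all of which may be technical. No 2 replicates agreed within sampling noise. Between 3 and 5 DPA, deviations of the 3 same-number pairs correlated by 0.156 to 0.326, while no other pair of groups had all 3 above 0.1. Libraries of unlike number were not compared, so these values cannot show whether the numbers pair libraries. The depth of 29867083 to 50012558 counts per library gave at least 241 counts in every library for each member but Pmaip1 and Bid.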

Additional observations from a re-analysis of the deposited data

Results flagged for a closer look

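The changes listed here are those of members whose effect against CTRL differed between 2 times after toxin by edgeR's quasi-likelihood test of the difference itself; values are log2 fold changes. For 3 DPA against 1 DPA they were 0.57 for Bax, 0.87 for Bcl2, 2.10 for Pmaip1, -0.31 for Bad and -1.08 for Bbc3. For 5 DPA against 1 DPA they were 0.81 for Bak1, 0.69 for Bcl2, 2.43 for Pmaip1, -0.22 for Bad and -1.35 for Bbc3. For 5 DPA against 3 DPA the value was -0.80 for Bax. The macrophage and stromal marker sums differed between the same times, as given above for Pmaip1 and Bak1.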

How the results depend on the processing

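The calls of Bax and Bbc3 at 1 DPA, Bax at 3 DPA, Bcl2 for 3 against 1 DPA and Bbc3 for 3 and 5 against 1 DPA kept their direction and passed under all 22 other settings. The number of members called, leaving out 1 library at a time, was 2 to 6 for 1 DPA against CTRL, 1 to 3 for 3 DPA, 1 to 1 for 5 DPA, 4 to 6 for 3 against 1 DPA, 0 to 2 for 5 against 3 DPA, 4 to 5 for 5 against 1 DPA and 4 to 7 over the 4 groups. Over all genes, the same fits called 7852 to 9619 at 1 DPA and 1372 to 2801 at 3 DPA. At 5 DPA they called 462 to 2137, and over the 4 groups 8584 to 10492. Against 1 DPA they called 6173 to 8634 at 3 DPA and 8492 to 10202 at 5 DPA. At 1 DPA 4 members were called with DESeq2 and 6 with library sizes without the 50 most abundant genes. Of all genes, 9445 and 9746 were called in those fits, beside 8916 with edgeR and TMM. At 5 DPA 2 were called with DESeq2 and 0 with the macrophage or stromal covariate. With the macrophage covariate 3 were called for 3 against 1 DPA and 2 for 5 against 1 DPA, and with the stromal covariate 1 for 5 against 1 DPA and 0 for 5 against 3 DPA. With only the groups compared, 2 were called for 5 against 3 DPA. The macrophage and stromal scores themselves differ between the groups, and the cause of these differences was not tested.

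The replicate block changed no call of a member (Bax for 5 against 3 DPA -0.79, edgeR adjusted p = 0.0247). Over all genes, 340 were called for 5 against 3 DPA with the block and 547 without it.

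Over all genes, 2400 were called at 5 DPA with DESeq2, 622 with only the groups compared, 166 with the macrophage and 184 with the stromal covariate, beside 1477. At 3 DPA 1302 were called with the acinar covariate, beside 2182. For 3 against 1 DPA 4344 and 5170 were called with the macrophage and stromal covariates, beside 7805, and for 5 against 1 DPA 2849 and 3767, beside 9703. For 5 against 3 DPA the counts were 1177 with DESeq2, 899 with only the groups compared, 212, 92 and 175 with the macrophage, stromal and acinar covariates, and 31 to 1018 with 1 library left out. DESeq2 had 67.5% of calls higher at 3 DPA, beside 81.2%, and 35.3% for 5 against 3 DPA, beside 22.3%.

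Changes of sign touched 3 called differences, all with the macrophage covariate: Pmaip1 for 3 against 1 DPA (-0.34) and 5 against 1 DPA (-1.42), and Bak1 for 5 against 1 DPA (-0.11). The others were differences not called with TMM and no covariate, and Mcl1 for 5 against 1 DPA was the 1 of them that passed in the fit that turned it (macrophage covariate, edgeR adjusted p = 0.0305). With the macrophage covariate these were Bak1 0.14 and Pmaip1 0.88 at 1 DPA, Bid -0.36 and Pmaip1 -0.55 at 5 DPA, Bak1 -0.18 and Bid -0.50 for 3 against 1 DPA, Mcl1 -0.14 and Pmaip1 -1.09 for 5 against 3 DPA, and Mcl1 -0.66, Bid -0.95 and Bcl2l11 0.16 for 5 against 1 DPA. With the stromal covariate they were Bid -0.32 and Pmaip1 -0.13 at 5 DPA, Bak1 -0.0028 and Bid -0.27 for 3 against 1 DPA, Mcl1 -0.054 and Pmaip1 -0.52 for 5 against 3 DPA, and Mcl1 -0.42, Bid -0.64 and Bcl2l11 0.091 for 5 against 1 DPA. With the acinar covariate they were Bak1 0.19 at 3 DPA, Bcl2l11 -0.025 at 5 DPA and Bcl2l11 -0.070 for 3 against 1 DPA. At 3 DPA Bcl2l1 gave -0.011 with DESeq2, -0.011 with RLE scaling, -0.012 without the 50 most abundant genes, -0.015 with no filter and -0.0060 with only the groups compared, and Bak1 gave 0.036 with limma-voom. Bcl2l11 for 3 against 1 DPA gave -0.0055 with DESeq2 and -0.0056 with RLE scaling. Without the 50 most abundant genes, Bid at 1 DPA gave -0.098, Mcl1 for 3 against 1 DPA 0.023 and Bcl2l11 for 5 against 1 DPA 0.022.

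Leaving out 1 library at a time, the ranges that crossed 0 were Bid -0.14 to 0.077 at 1 DPA. At 3 DPA they were Bak1 -0.22 to 0.093, Bcl2l1 -0.085 to 0.062, Bid -0.088 to 0.35 and Pmaip1 -0.0010 to 1.53. At 5 DPA they were Bcl2l1 -0.11 to 0.0055, Bcl2l11 -0.080 to 0.14, Bbc3 -0.031 to 0.23 and Bid -0.087 to 0.22. For 3 against 1 DPA they were Bcl2l11 -0.056 to 0.097 and Bid -0.061 to 0.32, for 5 against 3 DPA Bcl2l1 -0.10 to 0.0040 and Bid -0.27 to 0.15, and for 5 against 1 DPA Bid -0.041 to 0.19 and Mcl1 -0.048 to 0.13. Depth limits Pmaip1 and Bid most, with 27 to 313 and 108 to 256 counts per library.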
